A study of Mus musculus with 24 samples.

Results

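The genes described here mark the blood vessels and coverings of the brain: 36 genes of the endothelium, of the mural cells (pericytes and smooth muscle) that wrap it, and of the meningeal and perivascular fibroblasts. They were taken by symbol from a named list whose rule uses no measured value, though the list was drawn up with earlier results of these data known, and all 36 were among the 46983 genes of the read count table and among the 16209 genes that passed the filter on low counts. The list held 19 endothelial genes, 6 pericyte genes, 3 smooth muscle genes, the 2 type IV collagen genes of the basement membrane and 6 fibroblast genes. RNA had been sequenced from dorsal and ventral hippocampal punches of 24 adult female C57BL/6 mice, 6 in each of 4 groups.

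The groups crossed genotype with rearing. Fkbp5 lox/lox mice carried the floxed Fkbp5 alleles without Cre and served as wild type, and Fkbp5 Nex mice carried the same floxed alleles with Nex-Cre, which removes FKBP51, a co-chaperone of the glucocorticoid receptor, from glutamatergic neurons of the forebrain except in the dentate gyrus. Nex-Cre acts from embryonic life onwards and is a neuronal driver, so the floxed alleles of the vascular and meningeal cells themselves were not its target. Pups of both genotypes were reared either under standard housing (control) or with limited bedding and nesting material in the first days after birth (early life stress, ELS). The libraries held 18347283 to 26555623 counted reads, and Fkbp5 counts separated the genotypes without overlap (1078 to 1602 in the 12 lox/lox mice and 169 to 582 in the 12 Nex mice).

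Brain endothelium forms the blood-brain barrier: tight junctions seal the cells, and transporters carry glucose in and drugs out. Pericytes share a basement membrane of type IV collagen and laminin with the endothelium and are recruited through platelet-derived growth factor signalling. Smooth muscle cells ring the arterioles, and fibroblasts lie in the meninges and around the larger vessels. A hippocampal punch holds capillaries throughout its depth, whereas meninges and the neighbouring choroid plexus enter it only where it touches a surface. In such bulk tissue, fewer cells of a type and less RNA per cell cannot be told apart.

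No member differed between groups at a false discovery rate of 2% in any of 7 comparisons. What distinguished the genes was how they varied from mouse to mouse: the endothelial genes varied mostly together, the type IV collagen genes varied with each other more closely than with most endothelial genes, and decorin, Igf2 and osteoglycin each spanned a wide range and followed different genes. These patterns are described first by level, then by comparison, then by covariation.

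All lineages on the list were detected in every mouse. Levels are given in CPM, read counts scaled to library size. Divided by exon length in kilobases, the median level over the 24 mice was highest for Vtn, which encodes the matrix protein vitronectin and is made by pericytes, at 28.8 CPM per kilobase. It was followed by Itm2a, a membrane protein of endothelium, at 26.4 and by Rgs5, a regulator of G-protein signalling in pericytes, at 22.6. Cldn5, the claudin of the endothelial tight junction, came next at 20.5 CPM per kilobase. Neighbours in this order were not separated from mouse to mouse, since Vtn lay as low as 23.6 while Itm2a reached 37.0 and Cldn5 31.5 CPM per kilobase, with Rgs5 between 12.2 and 28.0. Anpep, aminopeptidase N of pericytes, was lowest at 0.373 CPM per kilobase, with 14 to 58 reads per mouse, so that its values carry the largest counting error on the list. Summed over the genes of a class, the median was 11.5 CPM per kilobase for the 3 smooth muscle genes. It was 57.7 for the 6 pericyte genes and 128 for the 19 endothelial genes. These sums depend on how many genes were listed and do not rank the lineages.

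The 3 members with the smallest spread within groups were endothelial. Slc2a1, the glucose transporter GLUT1, lay between 43.0 and 61.3 CPM in the 24 mice, with a standard deviation (SD) within groups of 0.13 on the log2 scale, the smallest on the list. Egfl7, a secreted endothelial factor, had an SD of 0.15 and a range of 12.6 to 19.7 CPM. Slco1a4, an organic anion transporter of brain endothelium, had an SD of 0.17 and a range of 36.3 to 61.8 CPM. Abcb1a, P-glycoprotein, another transporter of the barrier, had an SD of 0.27. The median SD was 0.27 for the 36 members, also 0.27 for the 19 endothelial genes, and 0.18 for all genes tested, and the largest SD among the endothelial genes was 0.37, that of Vwf, von Willebrand factor.

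The genes listed as fibroblast genes were the most variable class, with a median SD of 0.73 and a range from 0.38 for Col1a1 to 1.04. Which cells their reads came from was not tested. Ogn, osteoglycin, a small leucine-rich proteoglycan, had an SD of 1.04 and went from 1.70 CPM in Nex control mouse 32 to 30.4 CPM in lox/lox ELS mouse 8. Dcn, decorin, another proteoglycan of this family, had an SD of 0.97 and went from 15.8 CPM in Nex control mouse 54 to 153 CPM in lox/lox ELS mouse 68. Igf2, insulin-like growth factor 2, had an SD of 0.94 and went from 20.9 CPM in Nex ELS mouse 38 to 187 CPM in lox/lox control mouse 74. Different mice were thus at the ends of the range for each of the 3 genes, and the wide ranges occurred inside every group. Igf2 reads cannot be fully assigned, because 62.8% of its exon bases are shared on the same strand with the annotated gene Gm49394.

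**Figure D1:**
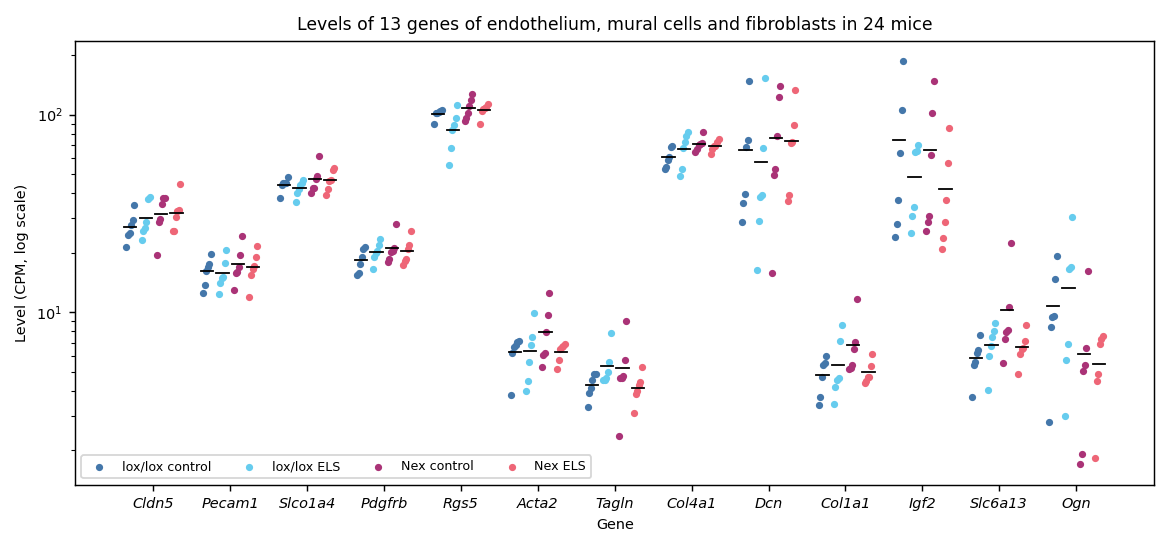
Level of 13 vascular and meningeal genes in each of the 24 mice, in CPM on a log axis. Each point is 1 mouse, colours give the 4 groups of 6 mice and black bars the group means. Slco1a4 stays between 36.3 and 61.8 CPM, whereas Dcn runs from 15.8 to 153, Igf2 from 20.9 to 187 and Ogn from 1.70 to 30.4 CPM, with the groups overlapping for every gene.

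One library stood apart for this gene list. Nex control mouse 12 had the highest level of 19 of the 36 members, while Nex ELS mouse 60 had the highest of 7, and Nex control mouse 42, of the same group as mouse 12, the lowest of 9. Mouse 12 also had the highest summed level of the astrocyte (970 CPM per kilobase, against a median of 439), microglia (181, median 115) and perivascular macrophage markers (2.18, median 1.09), and the lowest of the neuronal (773, median 1015) and choroid plexus markers (16.5, median 132). The part of this library's make-up in the comparisons below was not tested. Counts of higher members that it moved by more than 1.5 times are given with and without it.

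The effect of ELS in Fkbp5 lox/lox mice asks whether rearing left a mark on vascular RNA in the wild type. With edgeR's quasi-likelihood test, 5 surrogate variables in the model and Benjamini-Hochberg adjustment over 16209 genes, 0 of 36 members passed, the smallest adjusted p being 0.95. Over all genes, 0% were called, and DESeq2 called no member either. At an unadjusted p under 0.05, 7 members were higher after ELS and none was lower, where 2.85% of all genes were higher and 4.86% moved in either direction at that level. These were Tie1, Ly6c1, Ly6a, Tagln, Col4a1, Col4a2 and Col1a2. The median log2 difference was 0.18 for the members and 0.0026 for all genes tested.

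Col4a1, which encodes a chain of the type IV collagen that forms the sheet of the basement membrane, had the smallest p of this comparison. In lox/lox control mice it ranged from 53.2 to 69.4 CPM around a median of 59.8, and in lox/lox ELS mice from 48.8 to 81.2 CPM around a median of 70.4. The ELS group thus held both the lowest and nearly the highest value of the 24 mice, and the groups overlapped. Its log2 difference was 0.29 (SE 0.08, n = 6 and 6, adjusted p = 0.95 by edgeR). Without surrogate variables the difference was 0.14 (SE 0.10).

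Ly6c1 and Ly6a encode lipid-anchored surface proteins of brain endothelium. Ly6c1 ranged from 21.4 to 27.3 CPM (median 22.6) in lox/lox control mice and from 23.4 to 27.2 CPM (median 24.4) in lox/lox ELS mice. The fitted difference was 0.24 (SE 0.08), and 0.08 (SE 0.14) without surrogate variables. Tagln, a calponin-related actin-binding protein of smooth muscle, ranged from 3.33 to 4.89 CPM (median 4.34) and from 4.54 to 7.87 CPM (median 4.82), with a fitted difference of 0.54 (SE 0.19). Without surrogate variables, 0 members were higher and 1, Rgs5, was lower at an unadjusted p under 0.05, where 1.73% of all genes were higher, and the median difference of the members was 0.10. Leaving out a mouse, with the surrogate variables estimated anew, moved the count as well. Then 4 members were higher without lox/lox control mouse 30, lox/lox ELS mouse 56 or Nex control mouse 12. There were 12 without lox/lox ELS mouse 4, and 13 without lox/lox control mouse 50. With no surrogate variables, leaving out each mouse gave 0 to 2 higher members. The 7 members thus depended on the surrogate variables, which together took a median of 44.6% of the members' variance within groups and 56.8% of that of all genes.

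Other genes chosen to represent their cell class had small differences against their errors. Cldn5 ranged from 21.3 to 34.9 CPM in lox/lox control mice and from 23.2 to 38.2 CPM after ELS, a log2 difference of 0.10 (SE 0.17). Pecam1, an adhesion molecule between endothelial cells, differed by 0.08 (SE 0.14) and Slco1a4 by 0.06 (SE 0.08). Pdgfrb, the receptor through which pericytes are recruited, differed by 0.21 (SE 0.12) and Rgs5 by -0.10 (SE 0.09). Igf2 differed by 0.17 (SE 0.25) and Slc6a13 by 0.25 (SE 0.22). Among the contractile and fibroblast genes, Acta2, smooth muscle actin, differed by 0.24 (SE 0.20), Col1a1 by 0.34 (SE 0.22), Dcn by -0.01 (SE 0.26) and Ogn by -0.68 (SE 0.41). For Ogn the error therefore allows changes of a size that would be plain in the endothelial genes. The error of Col1a1 was close to that of Eng (SE 0.20), the largest among the endothelial genes.

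The effect of ELS in Fkbp5 Nex mice asks the same in mice lacking neuronal FKBP51. No member passed the test (0 of 36, smallest adjusted p 0.9996 by edgeR, 0% of all genes called), and 0 members were below an unadjusted p of 0.05 in either direction, where 2.8% of all genes were. The median difference was -0.009. Without surrogate variables 2 members were lower at that level, where 496 of 16209 genes moved in either direction. The median in that fit was -0.08, with 30 of 36 members negative. When Nex control mouse 12 was also left out of that fit, 0 were lower, 14 of 36 were positive and the median was -0.02. With only the 12 mice compared, 4 were lower, where 852 of 16209 genes moved in either direction. The smallest p values belonged to Abcc9, the sulfonylurea receptor subunit of the potassium channel of mural cells, and to Slc6a13. Abcc9 ranged from 4.85 to 10.9 CPM in Nex control mice and from 6.07 to 8.38 CPM in Nex ELS mice, with a difference of -0.27 (SE 0.15). Slc6a13, a GABA transporter of meningeal fibroblasts, differed by -0.23 (SE 0.21), and by -0.64 (SE 0.25) without surrogate variables. Its highest value among Nex control mice was 22.3 CPM, in mouse 12, with 10.6 CPM next.

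The interaction tests whether the ELS effect differs between genotypes. No member passed (0 of 36, smallest adjusted p 0.9995 by edgeR, 0% of all genes called). At an unadjusted p under 0.05 the ELS effect was higher in lox/lox than in Nex mice for 4 members and lower for none, against 4.02% of all genes in either direction. They were Col4a1 with a log2 difference of the effects of 0.31 (SE 0.11), Col4a2 with 0.29 (SE 0.11), Abcc9 with 0.55 (SE 0.20) and Tagln with 0.62 (SE 0.26). Without surrogate variables the first 3 were at 0.16 (SE 0.14), 0.19 (SE 0.14) and 0.30 (SE 0.23), none below an unadjusted p of 0.05. The members below it were Tagln at 0.65 (SE 0.30), Col1a1 and Slc6a13, where 332 of 16209 genes were in either direction. Without Nex control mouse 12, 2 members were higher with surrogate variables in the model and 0 with none. The main effect of ELS over both genotypes likewise gave 0 of 36 members (smallest adjusted p 0.9995, 0% of all genes called), with 4 members higher and none lower at an unadjusted p under 0.05, where 3.56% of all genes lay. Ly6a, at 0.19 (SE 0.07), and Ly6c1, at 0.14 (SE 0.06), had the smallest p, and Ly6c1 was at -0.04 without surrogate variables. In that fit 0 members were below an unadjusted p of 0.05, where 623 of 16209 genes were. The median of the members was -0.02 there, against 0.08 with surrogate variables. With each mouse left out, the higher members for the interaction numbered 0 (without lox/lox control mouse 74) to 8 (without lox/lox control mouse 50). For the ELS effect they numbered 1 to 8. The 1 came without lox/lox control mouse 30 or 34, lox/lox ELS mouse 56 or Nex ELS mouse 62. The 8 came without lox/lox control mouse 50 or lox/lox ELS mouse 4.

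Deletion of neuronal Fkbp5 under control rearing gave the most members at an unadjusted p under 0.05, and still none past the false discovery rate (0 of 36, smallest adjusted p 0.19 by edgeR, where 0.0494% of all genes were called, and none by DESeq2). Nex mice were higher for 10 members and lower for 1, where 3.78% of all genes were higher and 8.69% moved in either direction. The higher members were Tie1, Ly6c1 and Ly6a of the endothelium, Abcc9 and Vtn of pericytes, Acta2 of smooth muscle, both type IV collagen genes, and the fibroblast genes Col1a2 and Slc6a13. The lower member was Ogn. The median difference of the members was 0.21, and that of all genes tested was -0.0013. This comparison and that of ELS in lox/lox mice share the 6 lox/lox control mice, so members that appear in both are not independent.

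Ly6c1 again had the smallest p. It ranged from 21.4 to 27.3 CPM (median 22.6) in lox/lox control mice and from 19.0 to 43.6 CPM (median 27.8) in Nex control mice, where mouse 12 held the highest value and mouse 42 the lowest. Its difference was 0.27 (SE 0.07, n = 6 and 6, adjusted p = 0.19 by edgeR). Slc6a13 ranged from 3.72 to 7.68 CPM (median 5.91) in lox/lox control mice and from 5.57 to 22.3 CPM (median 8.03) in Nex control mice, the highest again being mouse 12. It differed by 0.62 (SE 0.19). Col4a2 ranged from 63.6 to 88.5 CPM (median 69.5) and from 74.5 to 102 CPM (median 84.5) and differed by 0.26 (SE 0.08). Ogn ranged from 2.80 to 19.2 CPM (median 9.56) and from 1.70 to 16.2 CPM (median 5.24) and differed by -1.004 (SE 0.40).

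Several other representatives of their class had positive differences that were less than 2 standard errors. Cldn5 differed by 0.11 (SE 0.15), Pecam1 by 0.18 (SE 0.13), Slco1a4 by 0.11 (SE 0.08), Pdgfrb by 0.21 (SE 0.11), Rgs5 by 0.11 (SE 0.09), Tagln by 0.26 (SE 0.18) and Col1a1 by 0.39 (SE 0.20). Acta2, at 0.42 (SE 0.18), and Col4a1, at 0.26 (SE 0.08), were more than 2 standard errors above 0. Dcn, at -0.09 (SE 0.24), and Igf2, at -0.28 (SE 0.23), were below 0. The counts turned on single libraries and on the surrogate variables, which were estimated anew (4 or 5 of them) each time a mouse was left out. Against 10 higher members with all mice, without Nex control mouse 12, 2 members were higher and the median difference fell to 0.0145. Without lox/lox control mouse 74, 1 was higher, and without lox/lox control mouse 50, 23 were. Leaving out lox/lox control mouse 28 or Nex control mouse 54 gave 6, and leaving out Nex control mouse 42 or 52 gave 16. With no surrogate variables 9 were higher, where 2.6% of all genes were, and leaving out each mouse then gave 2 (mouse 12) to 12 (mouse 42). In that fit 4 were higher without lox/lox control mouse 74 and 9 without lox/lox control mouse 50. Its median difference was 0.139 without Nex control mouse 12, against 0.217 with all mice.

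**Figure D2:**
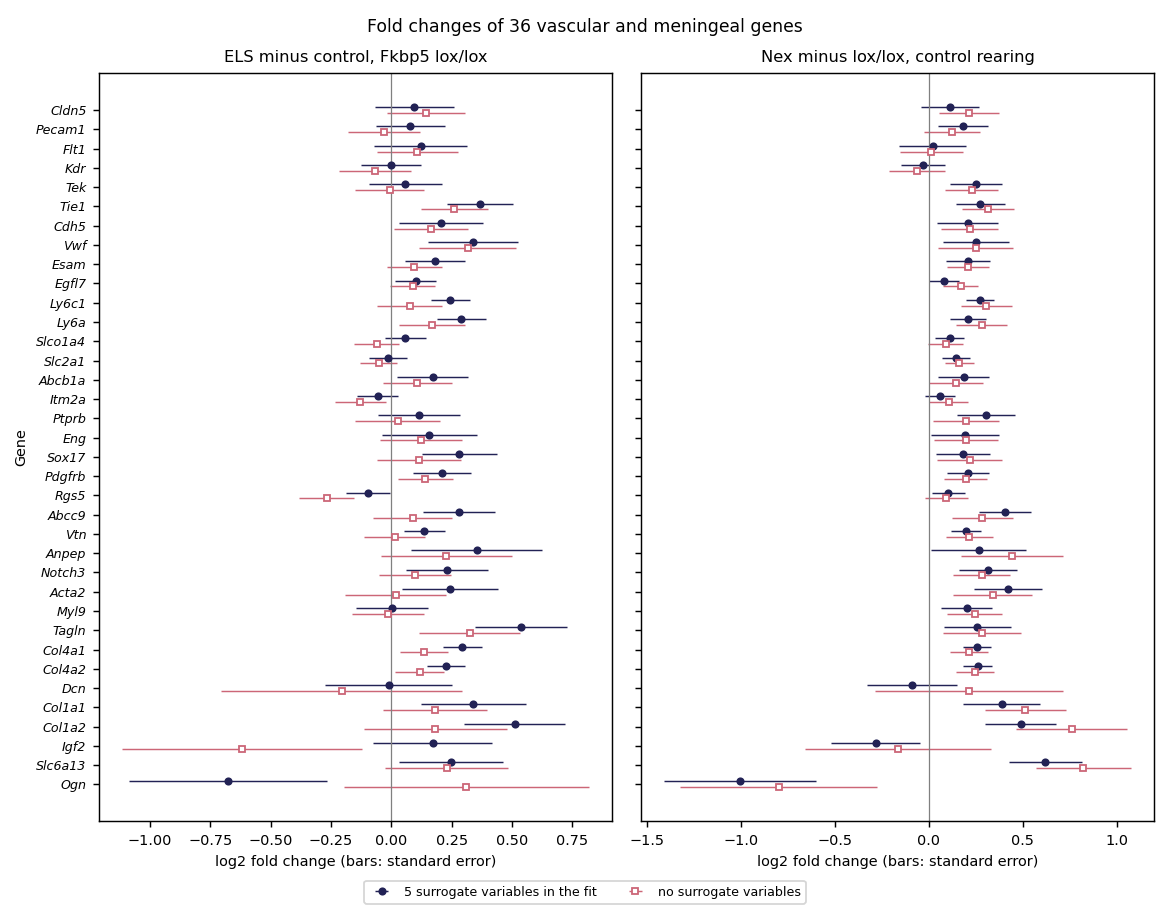
Log2 fold change of the 36 genes for ELS in Fkbp5 lox/lox mice (left) and for the Nex genotype under control rearing (right), with 5 surrogate variables in the model (filled circles) and with none (open squares). Bars are standard errors. Most filled circles lie above 0, with medians of 0.18 and 0.21, and Ogn has the longest bars, with SEs of 0.41 and 0.40 for the filled circles.

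Among mice reared under ELS, no member differed between the genotypes (0 of 36, smallest adjusted p 0.76 by edgeR, 0.0123% of all genes called), and 0 members were below an unadjusted p of 0.05, where 6.59% of all genes were. In each of the 4 comparisons of 6 with 6 mice, 0 of 36 members had groups that did not overlap, where 0.0679% to 0.173% of all genes did. Tagln, at -0.36 (SE 0.18), and Itm2a, at 0.15 (SE 0.08), had the smallest p. Tagln ranged from 4.54 to 7.87 CPM (median 4.82) in lox/lox ELS mice and from 3.10 to 5.30 CPM (median 4.14) in Nex ELS mice. The genotype effect over both rearing conditions gave 0 of 36 members (smallest adjusted p 0.20, 0.117% of all genes called), with 5 members higher and 1 lower at an unadjusted p under 0.05, where 11.5% of all genes lay. The higher ones were Ly6c1 at 0.17 (SE 0.05), Slc6a13 at 0.38 (SE 0.14), Slc2a1 at 0.14 (SE 0.05), Rgs5 at 0.13 (SE 0.06) and Col4a2 at 0.12 (SE 0.05), and the lower one was Ogn at -0.63 (SE 0.28). Without Nex control mouse 12, 2 members were higher and none lower, and the median of the members was -0.008 against 0.12 with all mice. With no surrogate variables this median was 0.0888 without mouse 12, against 0.139 with all mice. With each mouse left out, the higher members numbered 0 (without lox/lox control mouse 74) to 19 (without lox/lox ELS mouse 56), and among mice reared under ELS 0 to 4 (without lox/lox ELS mouse 56). Standard errors of the members ran from 0.05 to 0.28 for this comparison, and from 0.07 to 0.40 for the genotype under control rearing. Over all 7 comparisons, 14 members were below an unadjusted p of 0.05 at least once. The other 22 were not in any: Abcb1a, Cdh5, Cldn5, Egfl7, Eng, Esam, Flt1, Itm2a, Kdr, Pecam1, Ptprb, Slco1a4, Sox17, Tek and Vwf of the endothelium, Anpep, Notch3 and Pdgfrb of pericytes, Myl9 of smooth muscle, and the fibroblast genes Col1a1, Dcn and Igf2.

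Other genes of the same cells did not form a uniform picture under control rearing, and their counts at an unadjusted p under 0.05 are to be read against 3.78% of all genes higher and 8.69% in either direction. Of 34 further endothelial genes, 0 passed the false discovery rate for the genotype, and 3 were higher and 1 lower at an unadjusted p under 0.05, with a median difference of 0.05. The higher ones were Cav1, caveolin, at 0.25 (SE 0.09), Mfsd2a, the lipid transporter of the blood-brain barrier, at 0.25 (SE 0.09) and Ackr1, a chemokine receptor of venules, at 0.13 (SE 0.06). The lower one was Ocln, the tight junction protein occludin, at -0.34 (SE 0.10). Of 28 genes of vascular signalling, 1 was higher and 1 lower, with a median of -0.02. Of 17 further mural genes tested, 2 were higher and none lower (Mylk, at 0.44 with SE 0.10, and Heyl), with a median of 0.12. Of 15 further basement membrane genes, 3 were higher and none lower (Nid1, Lama4 and Lama2), with a median of 0.11. Without surrogate variables 4 of 34, 0 of 28, 3 of 17 and 1 of 15 were higher and none lower, where 2.6% of all genes were higher.

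Of 21 further fibroblast genes tested, 6 were higher and 2 lower under control rearing at an unadjusted p under 0.05, and none passed the false discovery rate. Without surrogate variables 7 were higher and none lower, and the median was 0.39 against 0.15. The higher ones included Aldh1a2, an enzyme of retinoic acid synthesis, at 0.80 (SE 0.28), Fmod, fibromodulin, at 0.73 (SE 0.25), and Ptgds, prostaglandin D synthase, at 0.69 (SE 0.25). The lower ones were Igfbp2, a binding protein of insulin-like growth factors, at -0.46 (SE 0.14), and Cemip. The summed level of these fibroblast genes ranged from 123 to 264 CPM per kilobase in lox/lox control mice and from 162 to 557 in Nex control mice, with mouse 12 at the top.

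Markers of neighbouring cells moved in the same comparison. All 7 choroid plexus genes tested were lower in Nex control mice at an unadjusted p under 0.05, with a median difference of -1.14, and Ttr, transthyretin, passed the false discovery rate at -3.82 (SE 0.60, adjusted p = 0.0050 by edgeR). Without surrogate variables 0 of the 7 were below an unadjusted p of 0.05 and none passed the false discovery rate, with differences down to -1.17 and a median of -0.78. No marker was at 0, but Ttr went from 0.227 to 4235 CPM over the 24 mice, and the summed choroid plexus level from 19.3 to 3987 CPM per kilobase in lox/lox control mice and from 16.5 to 2942 in Nex control mice. Of the 6 astrocyte markers, 3 were higher, with a median of 0.19, and of the 3 perivascular macrophage markers, 2 were higher, with a median of 0.45. The 5 blood genes (median 0.06), 3 ependymal genes (-0.12), 6 microglial genes (0.07) and 6 oligodendrocyte genes (0.07) had none below an unadjusted p of 0.05. Of 7 neuronal genes 1 was lower, Prox1 of dentate granule cells, which passed the false discovery rate at -0.67 (SE 0.09), and of 6 thalamic genes 2 were higher, with a median of 0.45. Without surrogate variables neither Prox1 nor any thalamic gene was below an unadjusted p of 0.05, and the thalamic median was 0.79. In lox/lox mice after ELS, 6 of 6 thalamic genes had positive differences with a median of 0.30, none below an unadjusted p of 0.05, but without surrogate variables all 6 were higher at that level, with a median of 1.37. In the same comparison 0 of 7 choroid plexus and 0 of 6 astrocyte markers were below that level, with medians of 0.13 and -0.02 (-0.97 and -0.11 without surrogate variables), and 1 of 3 perivascular macrophage markers was higher. The part of these cells in the members' differences was not tested.

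Covariation was examined on the deviation of each mouse from its group mean, so that group differences play no part. Of 22 pairs of genes, 9 correlated at an adjusted p under 0.05 (Pearson's r over 24 mice, two-sided test of 100000 permutations within groups, Benjamini-Hochberg adjustment over the 22 pairs). They were 6 of the 9 pairs inside a class, 1 of the 6 pairs between classes and 2 of the 7 pairs with genes of other cells. The 22 pairs were chosen with earlier results of these data known, so their p-values are not those of pairs picked blind. All genes of a mouse share its library, its depth and the scaling to CPM.

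The endothelial genes moved together. Cldn5 and Pecam1 correlated at r = 0.68 (permutation p = 0.0013, adjusted p = 0.0057; Spearman's rho = 0.62, permutation p = 0.0033). The VEGF receptors Flt1 and Kdr correlated at r = 0.71 (permutation p = 1e-04, adjusted p = 0.00073; rho = 0.68, permutation p = 0.00088). The barrier transporters Slco1a4 and Abcb1a, the latter P-glycoprotein, correlated at r = 0.76 (permutation p = 0.00015, adjusted p = 0.00082; rho = 0.67, permutation p = 0.0016). Leaving out the 2 mice whose first-named gene lay farthest from its median, r was 0.54, 0.70 and 0.63 for these 3 pairs. Among all 171 pairs of the 19 endothelial genes the median r was 0.63, no pair was negative, and 122 exceeded 0.5, Flt1 with Eng, the endoglin co-receptor of transforming growth factor beta, being the closest at 0.93. Abcb1a lay nearest to the rest of the class, with a median r of 0.74, and Slc2a1 farthest, with 0.38. The median r over pairs of all genes is not given here, and genes outside the members were as close. Those most like Cldn5 were Dlg4 (0.84), Gnai2 (0.83), Ephb4 (0.81), Sox18 (0.81) and Slc7a5 (0.80). Of these, Ephb4 is on the vascular signalling list and Slc7a5 on the further endothelial list. Pecam1 was at 0.81 with Camk2a and Flt1 at 0.87 with Epb41l1, neither on the lists. These were chosen after their values were seen.

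Mural genes joined the endothelium to different degrees. Cldn5 and Pdgfrb correlated at r = 0.65 (permutation p = 0.0021, adjusted p = 0.0066; rho = 0.60, permutation p = 0.0044), and at 0.53 without the 2 farthest mice. Tagln and Myl9, the regulatory light chain of smooth muscle myosin, had median correlations of 0.69 and 0.67 with the 19 endothelial genes, whereas Acta2 had 0.35. Cldn5 with Acta2 gave r = 0.30 (permutation p = 0.21, adjusted p = 0.31; rho = 0.26, permutation p = 0.26). Acta2 and Tagln correlated with each other at r = 0.63 (permutation p = 0.00385, adjusted p = 0.011; rho = 0.52, permutation p = 0.017), and Pdgfrb with Acta2 at 0.34 (permutation p = 0.13, adjusted p = 0.24; rho = 0.27, permutation p = 0.23). Without the 2 farthest mice these were 0.23 for Cldn5 with Acta2, 0.61 and 0.10. With the surrogate variables regressed out, Cldn5 with Acta2 was at 0.54 (permutation p = 0.012, not adjusted). Of the 1988 exon bases of Tagln, 62.4% overlap the antisense gene Gm48529, and it is not stated whether the counting used strand.

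Pdgfrb and Rgs5, both pericyte genes, missed the threshold with r = 0.45 (permutation p = 0.023, adjusted p = 0.051; rho = 0.49, permutation p = 0.019). Without the 2 mice farthest in Pdgfrb, r was 0.71, and it was also 0.71 (permutation p = 0.00027, not adjusted) with the surrogate variables regressed out. Leaving out lox/lox ELS mouse 8 alone gave 0.32 and leaving out Nex control mouse 12 alone gave 0.63. Lox/lox ELS mouse 8 had the lowest Rgs5 level of all, at 55.5 CPM against 67.5 CPM in the next lowest mouse, together with the highest Ogn and the lowest Col4a1 and Col4a2. Its summed thalamic marker level was the highest of the series as well, at 52.5 CPM per kilobase against a median of 13.2. The part of the punch's position in these values was not tested.

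Promoter sequence is shown for 2 members, since genes of the smooth muscle class (r between 0.63 and 0.82 for the 3 genes) and of the endothelial class varied together. The 250 bases before a transcription start in RefSeq (GRCm38.p6) were found for 25 of the 36 members and searched on both strands for the CArG box (CC, 6 bases that are A or T, GG), the site read by serum response factor in smooth muscle genes, for CAGGAAG, a sequence of the ETS type bound by factors of the endothelial lineage, and for CATTCC, the MCAT sequence. The 25 members had 33 windows. The CArG box was in 2 of the 33, those of Myl9 and Igf2, and in 1.47% of all 32851 windows. CAGGAAG was in 4 of the 33, from the 3 genes Egfl7, Igf2 and Itm2a, and in 10.8% of all windows. CATTCC was in 9 of the 33, from 7 genes, among them Acta2, and in 12.6% of all windows. The bases upstream of the RefSeq start that lie in no annotated exon are printed for Myl9 (chr2:156775214-156775419, plus strand) with the CArG box in capitals, beginning 161 bases before the start, and for the endothelial gene Itm2a (chrX:107403377-107403610, minus strand) with the match to CAGGAAG on the other strand in capitals, beginning 243 bases before it.
Myl9: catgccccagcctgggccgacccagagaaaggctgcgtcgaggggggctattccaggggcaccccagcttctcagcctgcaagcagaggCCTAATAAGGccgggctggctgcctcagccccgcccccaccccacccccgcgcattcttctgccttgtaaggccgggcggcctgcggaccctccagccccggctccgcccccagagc
Itm2a: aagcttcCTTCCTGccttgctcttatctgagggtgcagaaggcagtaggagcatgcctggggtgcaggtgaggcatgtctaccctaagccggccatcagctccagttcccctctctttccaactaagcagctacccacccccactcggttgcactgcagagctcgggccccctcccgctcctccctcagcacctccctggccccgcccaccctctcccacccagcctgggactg
A match describes the letters in this window and was not tested for binding, and windows were found for only part of the list.

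The type IV collagen genes were closer to each other than to Cldn5. Col4a1 and Col4a2 are neighbours transcribed away from each other, and their annotated starts lie on chromosome 8 at 11312826 (minus strand) and 11312805 (plus strand) of GRCm38, 21 bases apart. Over the 24 mice they correlated at r = 0.85 (permutation p = 3e-05, adjusted p = 0.00066; rho = 0.81, permutation p = 5e-05), with 0.77 without the 2 farthest mice and 0.73 once the surrogate variables were regressed out. The 2 genes share 22 exon bases, 0.295% of those of Col4a1 and 0.332% of those of Col4a2. Cldn5 with Col4a1 gave r = 0.06 (permutation p = 0.81, adjusted p = 0.84; rho = 0.0043, permutation p = 0.99), 0.04 without the 2 farthest mice, and 0.39 (permutation p = 0.080, not adjusted) with the surrogate variables regressed out. Among the 38 pairs of an endothelial gene with a type IV collagen gene the median was 0.09 and none exceeded 0.5. The pericyte gene Rgs5 was closest to the pair among the members, at 0.66 with Col4a1, and Ogn lay opposite, at -0.62 with Col4a2.

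The fibroblast genes did not vary as 1 group. Col1a1 and Col1a2, the chains of type I collagen, correlated at r = 0.78 (permutation p = 1e-04, adjusted p = 0.00073; rho = 0.78, permutation p = 3e-05), and at 0.77 without the 2 farthest mice. The 2 proteoglycan genes Dcn and Ogn had r = -0.02 (permutation p = 0.93, adjusted p = 0.93; rho = 0.02, permutation p = 0.93), and -0.12 without the 2 farthest mice. Igf2 with Slc6a13 gave r = 0.10 (permutation p = 0.70, adjusted p = 0.84; rho = 0.09, permutation p = 0.71), and 0.21 without them. Over the 15 pairs of the 6 genes the median was 0.13 and 3 exceeded 0.5. Dcn did not pass the threshold with Cldn5 (r = 0.07, permutation p = 0.78, adjusted p = 0.84; rho = -0.01, permutation p = 0.96) or to Acta2 (r = -0.36, permutation p = 0.15, adjusted p = 0.26; rho = -0.43, permutation p = 0.056), with 0.16 and -0.19 without the 2 farthest mice.

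**Figure D3:**
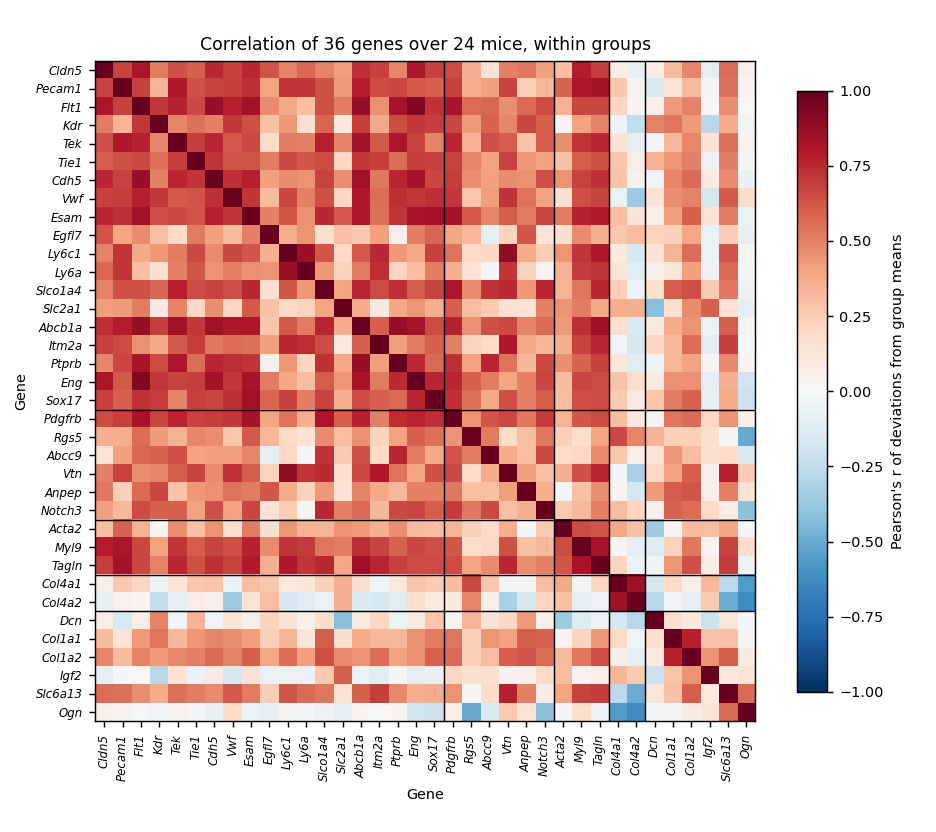
Pearson's r between the 36 genes over 24 mice, from deviations of log2 CPM from the group means. Black lines separate endothelial, pericyte, smooth muscle, type IV collagen and fibroblast genes, red is positive and blue negative. The endothelial block is red throughout (median 0.63), and Col4a1 and Col4a2 pair with each other at 0.85. In the fibroblast block 3 of 15 pairs exceed 0.5. They are Col1a1 with Col1a2 at 0.78, Col1a2 with Slc6a13 at 0.60 and Slc6a13 with Ogn at 0.57.

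The fibroblast genes were close to different genes outside the list. Igf2 varied with the choroid plexus markers: with Ttr it correlated at r = 0.64 (permutation p = 0.0018, adjusted p = 0.0066; rho = 0.66, permutation p = 0.0012), with 0.55 without the 2 farthest mice and 0.82 without Nex control mouse 12, which combined 102 CPM of Igf2 with 0.227 CPM of Ttr. Its median r with the 7 choroid plexus genes was 0.81, all 7 being above 0.5. The genes most like Igf2 among all those over 1 CPM on average were Angptl2, an angiopoietin-like factor, at r = 0.96, and Slc13a4, a sulfate transporter of the further fibroblast list, at 0.94, followed by Msx1, Abca4 and Bmp6 (0.94, 0.94 and 0.93), chosen after their values were seen and given without a test. In lox/lox control mouse 74, the mouse highest in Igf2, Ttr was also the highest of the series, at 4235 CPM, and in Nex control mouse 42, second in Igf2 at 149 CPM, Ttr was second at 3132 CPM.

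Dcn with Ttr did not pass the threshold (r = -0.25, permutation p = 0.31, adjusted p = 0.42; rho = -0.21, permutation p = 0.36), and its r was 0.01 without the 2 farthest mice. With Tcf7l2, a thalamic transcription factor, it gave r = -0.58 (permutation p = 0.0088, adjusted p = 0.022; rho = -0.48, permutation p = 0.030), but -0.37 (permutation p = 0.10) without the 2 farthest mice. With each mouse left out, r ran from -0.69 to -0.48. Once the surrogate variables were regressed out it was 0.46. The genes most like Dcn were Dio3, a thyroid hormone deiodinase, at 0.93, Figf, which encodes vascular endothelial growth factor D, at 0.90, Amz1 at 0.90, and Fxyd6 and Gap43 at 0.89. Gap43 is a protein of axons, and none of these 5 genes is on the lists used here. The median r of Dcn with the 19 endothelial genes was 0.09 and with the other 5 fibroblast members also 0.09.

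Slc6a13 and Ogn made 2 further patterns. The genes most like Slc6a13 were Fcgrt at 0.89, Fmod at 0.87, the organic anion transporter gene Slc22a6 at 0.85, Colec12 at 0.84 and the forkhead factor Foxc1 at 0.83, of which Fmod, Slc22a6 and Foxc1 are on the further fibroblast list. Its median r with 21 further fibroblast genes was 0.50. Without the 2 mice farthest in Slc6a13 these 5 values lay between 0.65 and 0.78. Mouse 12 was the highest in Slc6a13, Fmod (20.3 CPM), Slc22a6 (8.77 CPM) and Foxc1 (6.00 CPM). Ogn was most like Gmnc at 0.85, Trabd2b at 0.85 and Fam160a1 at 0.82, none of them on the lists, and it had a median r of -0.02 with the endothelial genes. Among the members Ogn was nearest to Slc6a13, at 0.57.

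**Figure D4:**
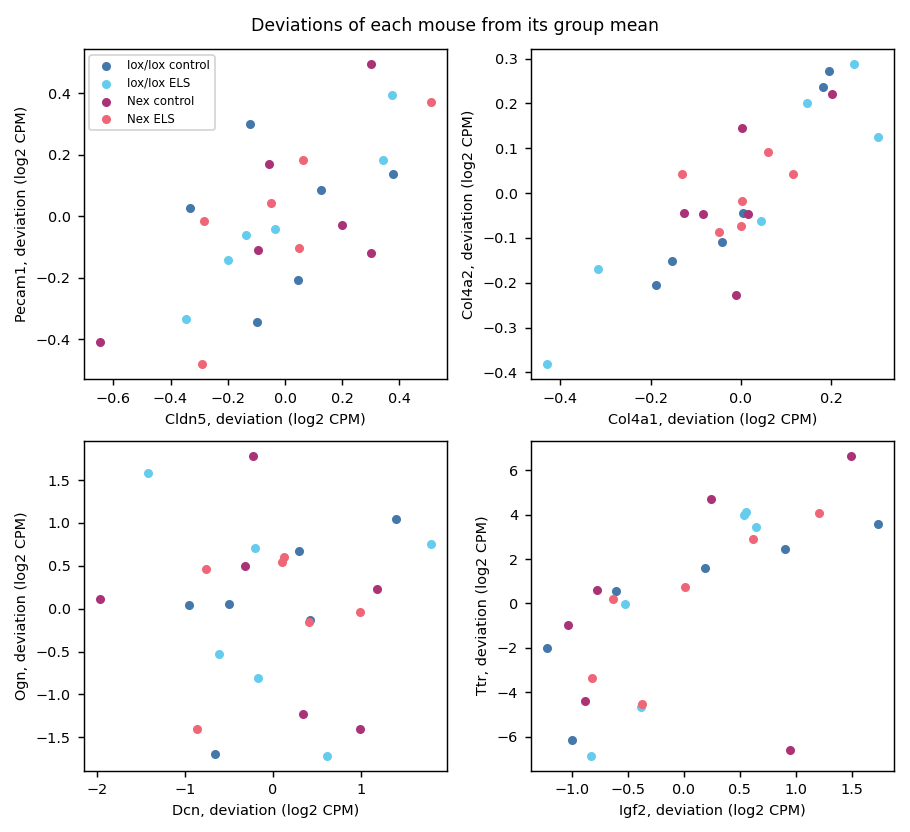
Deviation of each of the 24 mice from its group mean, in log2 CPM, for 4 pairs of genes: Cldn5 with Pecam1 (r = 0.68), Col4a1 with Col4a2 (0.85), Dcn with Ogn (-0.02) and Igf2 with Ttr (0.64). Each point is 1 mouse and colours give the group. The point at high Igf2 and low Ttr is Nex control mouse 12.

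None of the 3 genes of other cells paired with Cldn5 passed the threshold. Cldn5 with Ttr gave r = -0.40 (permutation p = 0.087, adjusted p = 0.17; rho = -0.32, permutation p = 0.17), with Hbb-bs, the beta globin of red cells, 0.14 (permutation p = 0.55, adjusted p = 0.71; rho = 0.10, permutation p = 0.66), and with Aqp4, the water channel of astrocyte endfeet, 0.30 (permutation p = 0.21, adjusted p = 0.31; rho = 0.30, permutation p = 0.17). Acta2 with Ttr gave 0.07 (permutation p = 0.79, adjusted p = 0.84; rho = 0.10, permutation p = 0.68). Without the 2 farthest mice these 4 values were -0.13, 0.32, 0.08 and 0.0046. Against whole marker lists, given without a test, Cldn5 had a median r of 0.42 with the 6 microglial and 0.34 with the 6 astrocyte markers. Several members were higher: Vtn had 0.76 with both lists, Ly6c1 0.76 with microglial and 0.67 with astrocyte markers, Itm2a 0.72 and 0.64, and Vwf 0.69 and 0.56. Col4a2 was lowest, at -0.41 with both. Nex control mouse 12 was the highest in both marker lists, and its part in these values was not tested. Vtn had a median r of 0.37 with the other 5 pericyte members and 0.89 with Ly6c1.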

How the data were processed

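RNA from hippocampal punches of 24 mice was sequenced. Per the labels and the study's methods, the authors removed low-quality reads, aligned read pairs with HISAT2 (2.0.5) and assigned them to genes by featureCounts (1.5.0-p3). The genome build and strand setting are not given in the sources used here. The deposited values are raw read counts, 18347283 to 26555623 per mouse. A gene was tested if 1 or more groups had no mouse below 10 counts (16209 of 46983 genes) with edgeR's quasi-likelihood test (4.0.16, R 4.3.3) after TMM scaling, with 4 group means and 5 surrogate variables (sva 3.50.0) and a false discovery rate of 0.02. The threshold and the use of surrogate variables follow the study, but the genes kept and the number of variables were set on these 24 mice alone. The study also excluded a sample far from the mean on the first principal component. It does not say which, or whether it was one of these 24 mice, all of which were kept here. Per the study, the mice came from the cohort that had undergone behavioural tests and MRI. Counts at an unadjusted p under 0.05 are read against the share of all genes at that level, which was not computed for fits that leave out 1 mouse. CPM values are TMM-scaled, and log2 CPM has a prior count of 2. Levels per kilobase and overlaps use exon lengths of a GRCm38 annotation, which the authors may not have used. Genes that share reads with close relatives (Ly6c1 and Ly6a, Abcb1a, Slco1a4, Acta2) are uncertain to that extent. DESeq2 (1.42.0), another scaling, 2 other filters, no surrogate variables, the 12 mice compared and leaving out each mouse were alternatives. For the 12 mice compared and for each mouse left out, the surrogate variables were estimated anew. The fit was checked on simulated counts. Mice carry individual numbers and n counts mice. The members, the lists and the pairs tested for correlation were chosen with earlier results of these data known. Singled out in the text were the 2 members of smallest p in each comparison, representatives of each class, and the extremes of level and variability. Genes most like a member were ranked by r among genes over 1 CPM on average. Counting error is relatively largest for the members with the fewest reads, Anpep (14 to 58 per mouse) and the low values of Ogn (from 35). Leaving out Nex control mouse 12 from the correlations, and each mouse from the fit without surrogate variables, were chosen after seeing the data.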

Additional observations from a re-analysis of the deposited data

Results flagged for a closer look

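Of the 144 sets of 6 values (36 genes in 4 groups), 14 held 1 mouse far from the other 5 by Dixon's test. Chance alone marks about 1 set in 20. The 14 values came from 7 mice, 4 of them from lox/lox control mouse 44. That mouse had 29.5 CPM of the VEGF receptor gene Kdr where the other 5 of its group had 15.5 to 19.7, and 12.2 CPM of Vwf against 7.59 to 8.71. It was low for Ly6a, at 10.8 CPM against 13.1 to 14.2, and for Acta2, at 3.84 CPM against 6.19 to 7.15. Lox/lox control mouse 34 was low for Slco1a4, at 37.8 CPM against 44.2 to 48.2, and for Rgs5, at 89.4 CPM against 102 to 106. Lox/lox control mouse 50 was high for Egfl7, at 16.3 CPM against 13.1 to 14.2, and for Myl9, at 9.29 CPM against 6.49 to 7.22.

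Among Nex mice, control mouse 52 had 19.7 CPM of Egfl7 against 14.2 to 15.6, and control mouse 12 had 27.9 CPM of Pdgfrb against 17.9 to 21.1. Nex ELS mouse 60 was high for Eng, at 18 CPM against 11.4 to 13.3, and for Sox17, a transcription factor of arterial endothelium, at 9.53 CPM against 5.28 to 6.18. Nex ELS mouse 10 was low for Tie1, at 7.24 CPM against 8.53 to 9.24, and for Rgs5, at 89.2 CPM against 104 to 113. No lox/lox ELS value stood apart by this test.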

How the results depend on the processing

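No member passed the threshold in any of the 7 comparisons under any alternative run, 60 counts in all, and of 306 alternative fold changes 288 kept their direction. Over all genes DESeq2 called 70 for the genotype and 53 for the genotype under control rearing, where edgeR called 19 and 8, and 3 and 2 without surrogate variables. At an unadjusted p under 0.05, 11 members were higher for the genotype with no filter on low counts, against 5. In either direction, 2931 of 32020 genes were below that level with no filter and 1861 of 16209 in the main fit. The count of correlated pairs was 9, was 6 without the 2 farthest mice and 8 to 10 with each mouse left out. No paired analysis was possible because the groups share no replicate numbers. Without surrogate variables the log2 difference turned for Ly6c1 in the ELS effect over both genotypes (-0.0404), for Pecam1 (-0.0296), Slco1a4 (-0.0601), Igf2 (-0.618) and Ogn (0.311) in ELS of lox/lox mice, and for Dcn (0.216) in the genotype under control rearing. With only the 12 mice compared, Dcn in ELS of lox/lox mice was 0.0413. With each mouse left out, differences in ELS of lox/lox mice ran from -0.0565 to 0.257 for Cldn5, -0.0664 to 0.186 for Pecam1, -0.00871 to 0.305 for Igf2 and -0.265 to 0.268 for Dcn. Those of the genotype under control rearing ran from -0.184 to 0.268 for Cldn5, -0.00146 to 0.277 for Pecam1, -0.0275 to 0.316 for Pdgfrb, -0.0275 to 0.156 for Rgs5, -0.0334 to 0.4 for Tagln, -0.102 to 0.517 for Col1a1 and -0.392 to 0.0940 for Dcn. The correlation of Dcn with Ogn was 0.0217 by rank, 0.181 with surrogate variables regressed out and -0.119 to 0.131 with each mouse left out. That of Cldn5 with Dcn was -0.0113, -0.251 and -0.0681 to 0.178. Regressing out surrogate variables turned Cldn5 with Ttr (0.0562), Acta2 with Ttr (-0.0420) and Dcn with Tcf7l2 (0.457), and leaving out each mouse gave -0.0982 to 0.301 for Igf2 with Slc6a13, -0.0477 to 0.192 for Cldn5 with Col4a1 and -0.0990 to 0.291 for Acta2 with Ttr. Dcn with Ttr was 0.0101 without the 2 farthest mice. The cause was not tested. Depth limits Anpep most, with 14 reads in 1 mouse.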
